A study of Saccharomyces cerevisiae with 4 samples.

Results

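Phosphate signalling in budding yeast runs through 5 regulator genes, PHO81, PHO80, PHO85, PHO4 and PHO2, and these are described here on arrays of cells lacking SNF2 or its SnAC domain. They were taken as the probes whose gene name in the platform annotation is one of these names. Each had 1 probe with a value on all 4 arrays, among 6226 probes and 5547 named genes.

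Pho85 is a cyclin-dependent kinase, and with the cyclin Pho80 it phosphorylates the activator Pho4 when phosphate is plentiful, which keeps Pho4 out of the nucleus. When phosphate runs short, the inhibitor Pho81 silences the kinase, and Pho4 enters the nucleus and, at many promoters with the homeodomain protein Pho2, switches on genes for phosphate uptake and storage. PHO81 is itself a target of Pho4, so it stands both upstream and downstream in the pathway. The acid phosphatase genes of this regulon are classic models of how nucleosomes are removed from promoters.

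Snf2 is the ATPase of the SWI/SNF chromatin remodeler and SnAC is a conserved domain within it. Messenger RNA was compared on 2-colour DNA microarrays, with 1 array value per probe in each of 4 groups. The snf2 null, a Δsnf2 strain in the BY4741 background, was set against wild-type BY4741. The SnAC deletion, strain PSY3, was set against Snf2-2FLAG, the wild-type strain PSY2 whose Snf2 carries a FLAG tag. BY4741 and Snf2-2FLAG were also each hybridised against themselves. YPD, rich in glucose and peptides, was the medium throughout, with growth at 25 C until the cultures reached an optical density of 0.8. The sources used here give neither the phosphate content of that medium nor whether a mutant was 1 clone or several.

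Values are the log2 ratio of the named strain over its wild type, minus the median of the array, so 0 is the middle of all probes and -1 is 2-fold lower. There was 1 sample in each group, so no value has a replicate error and no difference was tested. The self-hybridisations give a yardstick. Whether the channels of each held separate cultures is not known, so the spread between cultures may be missing from it. Estimated from the median absolute deviation, the SD across features was 0.14 on the BY4741 array and 0.22 on the Snf2-2FLAG array, and the central 99% of features ran from -0.49 to 0.43 and from -0.74 to 0.74. The median that centring removed was -0.39 on the array of the SnAC deletion and lay between -0.13 and 0.10 on the other 3, so centring matters chiefly for the SnAC deletion. SNF2 itself read -2.14 in the null against -0.19 on the BY4741 array, and it had no value on the arrays of the SnAC deletion or Snf2-2FLAG, where the labels could not be checked in this way. The RNA came from whole cultures, so less RNA in every cell and fewer cells with the transcript cannot be told apart.

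PHO81, the inhibitor of the kinase, was the only regulator whose transcript stood far from the array median in the mutants. It read -1.60 in the null and -1.50 with SnAC deleted, against -0.03 on the BY4741 array and 0.27 on the Snf2-2FLAG array. Both mutant arrays are low and both wild-type arrays are near the middle. The ratio corresponds to 3.02-fold lower PHO81 transcript in the null and 2.84-fold lower in the SnAC deletion. Only 46 of 6031 features read lower than PHO81 in the null, and only 39 of 5890 in the SnAC deletion. On the Snf2-2FLAG array it lay on the high side, above 88.4% of features, so subtracting that array widened the SnAC deletion value to -1.78, whereas subtracting the BY4741 array left the null at -1.56.

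PHO80 and PHO85, the cyclin and the kinase that Pho81 inhibits, read close to the median in both mutants. PHO80 read -0.07 in the null, 0.04 in the SnAC deletion, -0.10 on the BY4741 array and -0.08 on the Snf2-2FLAG array. Its 4 values span only 0.14, the narrowest range among the 5 genes. PHO85 read 0.09 in the null, 0.06 in the SnAC deletion, -0.04 on the BY4741 array and -0.31 on the Snf2-2FLAG array. The 2 mutants nearly coincide, and the lowest PHO85 value is that of a wild type against itself.

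PHO4, the helix-loop-helix activator of the regulon, likewise read near 0 everywhere. Its values were 0.03 in the null, -0.01 in the SnAC deletion, -0.10 on the BY4741 array and 0.07 on the Snf2-2FLAG array. Mutants and wild types interleave within a range of 0.17. As deposited, without centring, PHO4, PHO80 and PHO85 read -0.41, -0.35 and -0.33 in the SnAC deletion, near the median of -0.39 of that whole array. The arrays carry no information on Pho4 protein, its phosphorylation or where it sat in the cell.

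PHO2, the homeodomain partner of Pho4, was the highest of the regulators in both mutants, by small amounts. It read 0.23 for the null and 0.29 for the SnAC deletion, against -0.31 on the BY4741 array and -0.04 on the Snf2-2FLAG array. Here too the mutants do not overlap the wild types, in the direction opposite to PHO81. The same held for PHO80 and PHO85, by smaller margins for PHO80, so it does not set PHO2 apart. The share of all features ordered in this way was not counted. The BY4741 value of PHO2 is itself unusual, lower than all but 148 of 5808 features although both channels held the same strain. Subtracting it raised the null to 0.54, while the SnAC deletion became 0.33. As deposited, without centring, PHO2 read -0.10 in the SnAC deletion, below the 0.07 of the Snf2-2FLAG array, so the direction there depends on centring. None of these PHO2 values reached 2-fold.

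**Figure D1:**
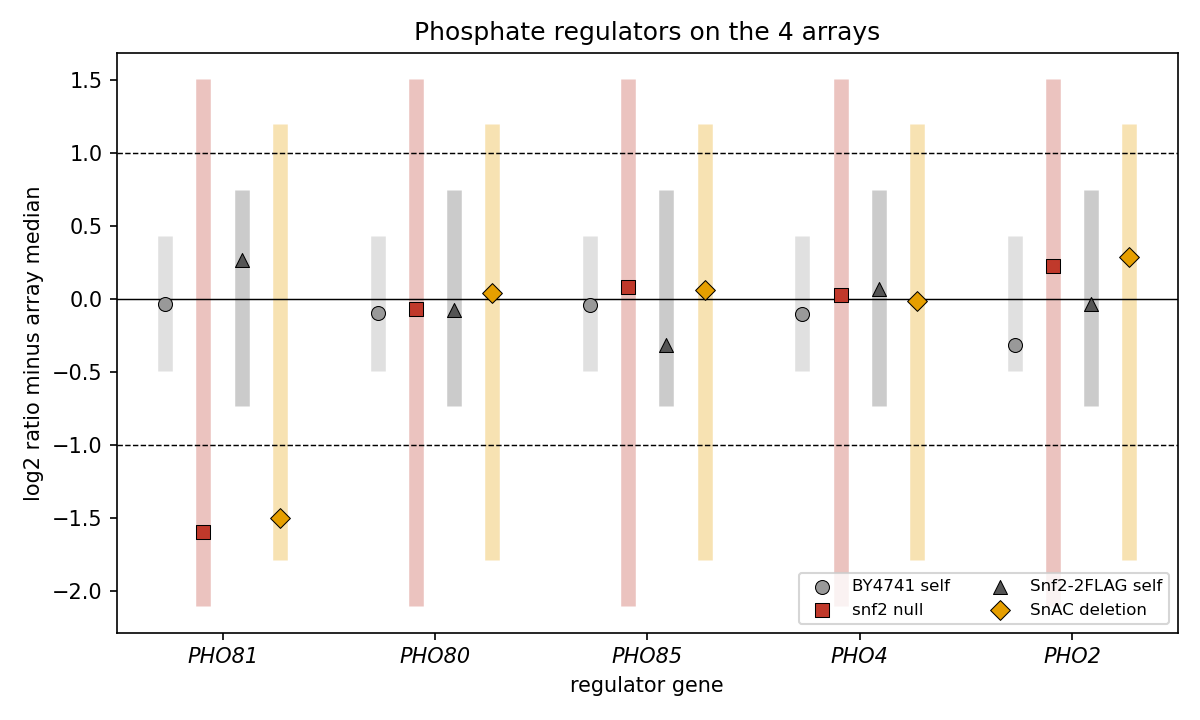
Log2 ratio minus the array median (vertical axis) for each regulator gene (horizontal axis) on the 4 arrays, 1 value per point. Pale bars show the central 99% of all features of that array and dashed lines mark 2-fold. PHO81 lies below the lower line in both mutants, at -1.60 and -1.50, and the other genes lie between -0.31 and 0.29 on all arrays.

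By the size rule of at least 2-fold from the array median, 1 of the 5 regulators was lower in the null and 0 were higher. Of all features on that array, 1.59% were lower and 1.26% higher by the same rule. In the SnAC deletion 1 regulator was again lower and 0 were higher, beside 1.19% and 0.866% of all features. PHO81 was the one in each case, and 1.11% of the features measured in both mutants were lower in both. The wild-type arrays placed 0 of the 5 past 2-fold, beside 0.0861% of all features for BY4741 and 0.3% for Snf2-2FLAG. With 5 genes, a count of 1 describes PHO81 and says nothing of the group. The median of the 5 was 0.03 for the null and 0.04 for the SnAC deletion, close to the medians of all features.

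Within each mutant the order of the regulators was dominated by the gap below PHO81. In the null PHO81 lay 1.65 below the median of the other 4, and in the SnAC deletion 1.55 below it. On the wild-type arrays PHO81 lay 0.06 and 0.33 above that median. The other 4 spanned 0.29 in the null, from PHO80 to PHO2, and 0.30 in the SnAC deletion, from PHO4 to PHO2. Their span was 0.27 on the BY4741 array and 0.39 on the Snf2-2FLAG array, so the spans of the mutants lay between those of the wild types, and no order among PHO80, PHO4, PHO85 and PHO2 is read from them.

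The mutants gave closely similar centred values for every regulator. The null minus the SnAC deletion was -0.06 for PHO2, 0.04 for PHO4, -0.11 for PHO80, -0.09 for PHO81 and 0.03 for PHO85. Over 5790 features the quartiles of this difference were -0.12 and 0.10, and its robust SD was 0.16, so each regulator lay between the quartiles. By these centred values, the PHO81 transcript differed less between the mutants than did 58.1% of features. As deposited, the 5 differences ran from 0.29 to 0.44, because the removed medians differ. With the own wild-type arrays subtracted, PHO81 differed by 0.214, PHO2 by 0.215, PHO4 by 0.214, PHO80 by -0.087 and PHO85 by -0.247. The close likeness is thus of the centred values, and the sign for PHO81 depends on the scaling. The mutants had separate arrays and separate wild types, and no replicate exists to set an error on these differences.

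PHO81 sat in the middle of the regulon it helps to control in the null, and in its lower part in the SnAC deletion. Of 20 genes listed as targets of Pho4, 19 had a value in the null, of which 12 were at least 2-fold lower and 0 higher, with a median of -1.83 against 0.07 on the BY4741 array. In the SnAC deletion 9 of 19 were lower and 0 higher, with the median at -0.99, and at 0.14 for Snf2-2FLAG against itself. As deposited, 12 of 19 were lower there. This pattern was known when the list was drawn up. PHO81 was less reduced than 10 of the 19 in the null, and than 6 of the 19 in the SnAC deletion.

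PHO84, PHO11 and PHO12, genes for phosphate capture, lay at the far end in both mutants. VTC3, a gene of polyphosphate synthesis, came next among the measured targets. PHO84, the high-affinity phosphate transporter, read -4.75 in the null and -4.91 with SnAC deleted, and PHO11, a secreted acid phosphatase, read -5.11 and -4.47. PHO12 at -4.87 and -4.16 is a near-identical copy of PHO11, and their probes may report on both. The repressible acid phosphatase PHO5 read -2.86 and -2.21, and PHO89, a sodium-coupled phosphate transporter, read -2.92 in the null with no value in the SnAC deletion. Genes of vacuolar polyphosphate synthesis lay on both sides of PHO81, with VTC3 at -3.03 and -2.73, VTC4 at -1.94 and -1.82, VTC1 at -1.83 and -1.30, and VTC2 at -1.001 and -0.90. The vacuolar phosphatase PHO8 read -1.36 and -1.30, just above PHO81 in both mutants.

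SPL2 resembles Pho81 in its setting, since it is a Pho4 target whose product restrains the low-affinity phosphate transporters. It read -1.95 for the null and -0.99 for the SnAC deletion, against -0.03 and 0.004 on the wild-type arrays. PHM6, a target of unsettled function, read -1.98 and -1.35. Both separated the mutants more than PHO81 did. At the other end GPP2, a glycerol phosphatase, read 0.89 and 0.48, and PPN1, a polyphosphatase, read 0.67 and 0.41.

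**Figure D2:**
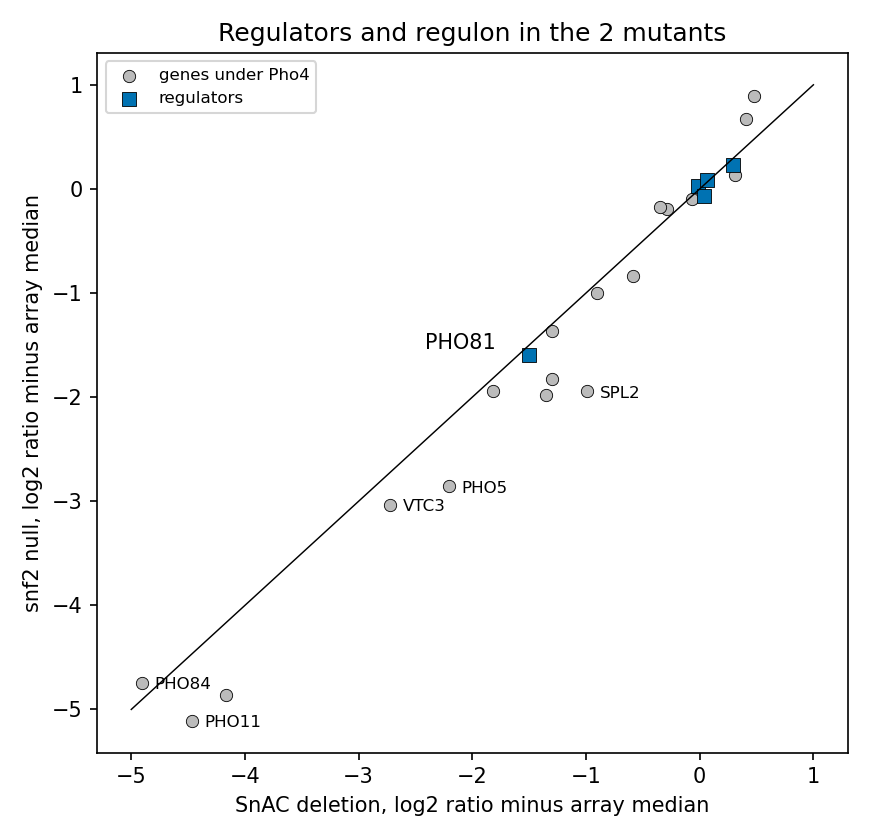
Log2 ratio minus the array median in the SnAC deletion (horizontal axis) and the snf2 null (vertical axis), 1 point per gene, for the 5 regulators (squares) and the listed targets of Pho4 (circles). The line marks equal values. PHO81 lies at -1.50 and -1.60 among the targets, and the other regulators lie near 0 in both.

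Pho2 also works without Pho4, with Bas1 at genes of purine synthesis, histidine synthesis and one-carbon metabolism, so these genes give a second view of its targets. Of 15 listed genes, 14 had a value in each mutant, and 4 of these were at least 2-fold lower and 0 higher in both. Among the features measured in both mutants, 1.11% were lower in both. The 4 were HIS4, a histidine synthesis enzyme, at -1.26 in the null and -1.54 with SnAC deleted, and the glycine cleavage genes GCV1 at -1.75 and -2.55, GCV2 at -1.12 and -1.43, and GCV3 at -1.01 and -1.05. As deposited, 5 were lower in the SnAC deletion, with ADE17 added at -1.045. The measured purine genes were less displaced when centred. The lowest were ADE8 at -0.63 and -0.44, ADE4 at -0.61 and -0.57, and ADE17 at -0.54 and -0.65. The highest was ADE12 at 0.41 and 0.34. With the Snf2-2FLAG array subtracted, ADE4 and ADE17 passed 2-fold in the SnAC deletion, at -1.18 and -1.04. The list median was -0.50 for the null and -0.43 for the SnAC deletion, against 0.20 and 0.18 on the wild-type arrays. The list was drawn up after values had been seen. Gcn4 also acts at several of these genes, and the share of either factor was not tested. BAS1 itself read 0.13 for the null and -0.16 for the SnAC deletion.

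Upstream of Pho81, the enzymes of inositol polyphosphates and pyrophosphates, small molecules that bind SPX domains such as that of Pho81, stayed within 2-fold. All 7 had a value in both mutants, and the list median was -0.12 for the null and -0.13 for the SnAC deletion. As deposited, VIP1 was past 2-fold in the SnAC deletion. The lowest was VIP1, an inositol pyrophosphate synthase, at -0.57 in the null and -0.74 with SnAC deleted, against -0.19 on the BY4741 array and 0.22 on the Snf2-2FLAG array. KCS1, the other pyrophosphate synthase, read -0.12 and -0.19. Most features stayed within 2-fold too, with 1.59% lower and 1.26% higher in the null, and 1.19% and 0.866% in the SnAC deletion.

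The other cyclins of Pho85, which direct the kinase to other substrates, showed 0 of 9 past 2-fold in either mutant. PCL2, a G1 cyclin, was the highest at 0.67 for the null and 0.77 for the SnAC deletion, and PCL9, a cyclin of late M and G1, was the lowest at -0.63 and -0.49. PCL7 read 0.51 and 0.52. The PHO80 values, -0.07 and 0.04, lay inside the range of these cyclins. Among 8 other substrates of Pho85, 0 passed the rule, though ASH1, a repressor made in daughter cells, lay just inside it in the null at -0.99 and read -0.79 in the SnAC deletion, where it was past 2-fold as deposited. Of the other cyclin-dependent kinases, 0 of 5 passed. CDC28, the cell cycle kinase, had the widest value in the null among them at 0.19, and SGV1, a kinase of transcription elongation, the widest in the SnAC deletion at -0.21. Across all features the rule took 1.59% as lower and 1.26% as higher in the null, and 1.19% and 0.866% in the SnAC deletion. Counts of 0 in lists this small lie near those shares and say nothing of the lists.

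Factors that handle Pho4 had sparse data. PSE1, its nuclear importer, read -0.43 in the null and -0.50 with SnAC deleted, against 0.04 and 0.41 on the wild-type arrays. MSN5, the exporter of phosphorylated Pho4, read 0.18 and 0.09. PHO92, whose product promotes decay of PHO4 messenger RNA, had no value in either mutant. CBF1 encodes another helix-loop-helix factor that binds the same E-box core as Pho4, and it read -0.70 for the null and -0.61 for the SnAC deletion. It was the lowest of 7 other helix-loop-helix genes, of which 0 passed 2-fold in either mutant, though CBF1 did so as deposited in the SnAC deletion. Of 4 other homeodomain genes 0 passed as well. TOS8 was the highest in the SnAC deletion at 0.43 and CUP9 the lowest in the null at -0.42. Both counts of 0 lie near the shares of all features. Those were 1.59% lower and 1.26% higher in the null, and 1.19% and 0.866% in the SnAC deletion.

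Pho81 shares its SPX domain, a phosphate-sensing fold, with 9 other listed proteins, and their transcripts read both low and high. In the null 3 of 9 were at least 2-fold lower, VTC3, VTC4 and VTC2, and in the SnAC deletion 2 of 9, VTC3 and VTC4. As deposited, the counts were 2 and 4. VTC2, VTC3 and VTC4 are also on the list of Pho4 targets, so both lists count them. VTC5, an accessory subunit of the same polymerase, read -0.85 and -0.65. The low-affinity phosphate transporters PHO87, PHO90 and PHO91 read 0.61, 0.06 and 0.22 in the null, and 0.33, -0.16 and 0.21 in the SnAC deletion.

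**Figure D3:**
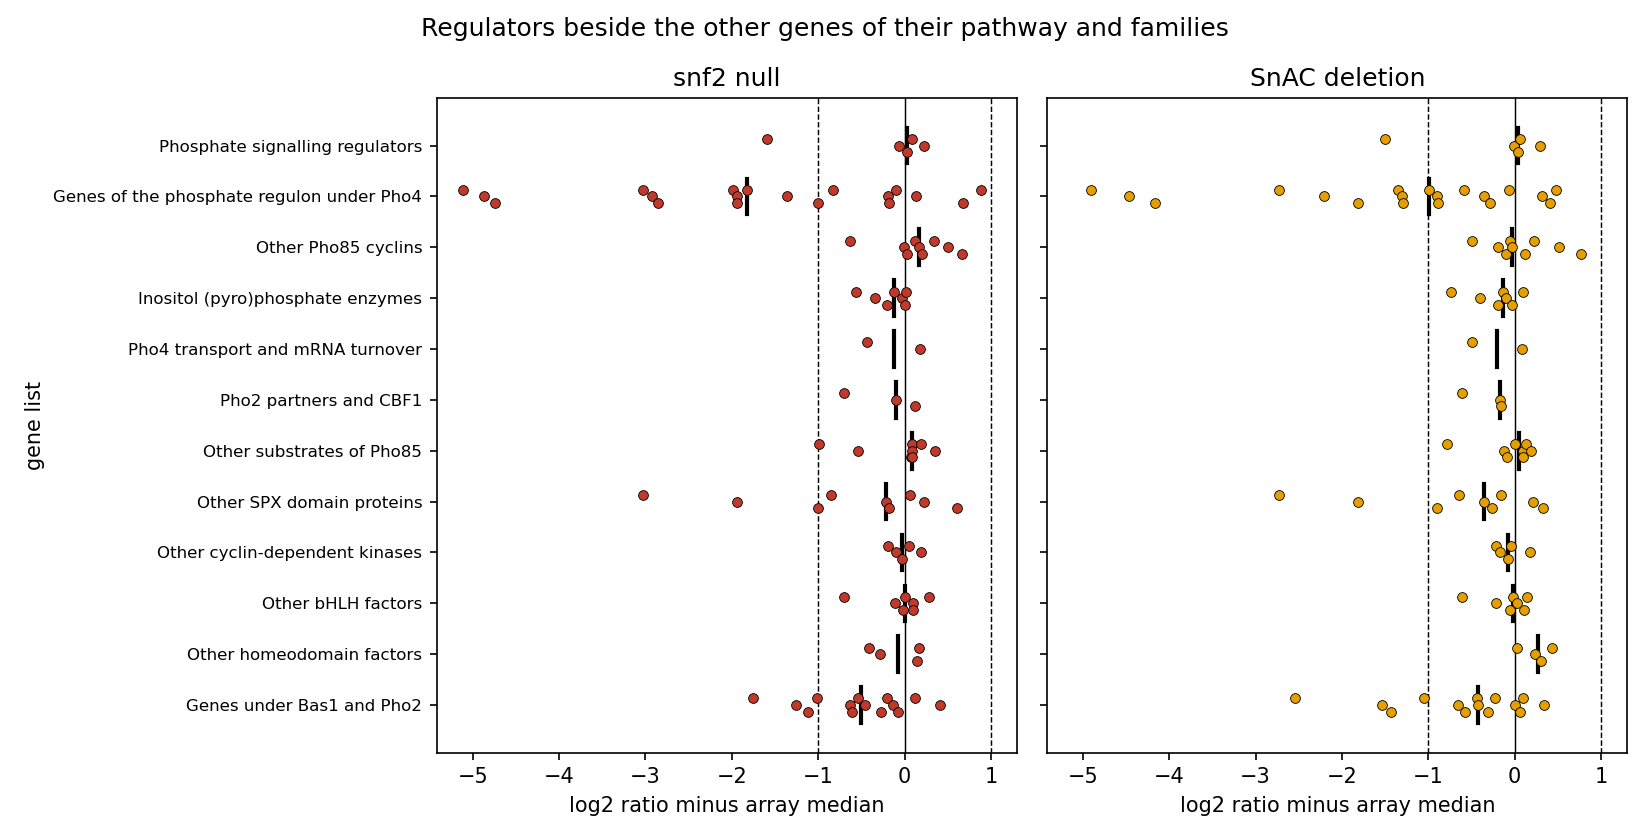
Log2 ratio minus the array median (horizontal axis) for every measured gene of each list (vertical axis), 1 point per gene, in the snf2 null on the left and the SnAC deletion on the right. Black ticks are list medians and dashed lines mark 2-fold. Low genes are found among the Pho4 targets, the SPX domain genes, the Bas1 and Pho2 genes and, as PHO81 alone, the regulators. The SPX domain genes past 2-fold are also on the list of Pho4 targets.

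PHO81 lies beside another strongly displaced gene. By gene order in the R64 gene table its neighbour is YHB1 (YGR234W), the flavohaemoglobin that detoxifies nitric oxide, and the strand letters of the locus tags place PHO81 (YGR233C) and YHB1 back to back, transcribed away from each other. YHB1 read -4.61 in the null and -3.82 with SnAC deleted, which is 24.4-fold and 14.1-fold lower, against 0.01 on the BY4741 array and -0.12 on the Snf2-2FLAG array. Only 3 features read lower than YHB1 on either mutant array. On the other side of PHO81, NAS6, a proteasome assembly factor, read 0.56 and 0.59, and beyond YHB1 MIC26, a mitochondrial membrane organiser, read 0.26 and 0.30. The low values thus covered PHO81 and YHB1 and not the measured genes on either side of the pair.

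Such a pair was rare on these arrays. Among 1241 divergent neighbouring pairs with both genes measured in the null, 24 held at least 1 gene that was 2-fold lower, and PHO81 with YHB1 was the only pair in which both were. In the SnAC deletion it was the only such pair among 1191, of which 16 held at least 1 lower gene. At 1.5-fold, and as deposited without centring, the SnAC deletion gave 2 pairs, the second being VTC3 with CTF19. With the Snf2-2FLAG array subtracted it gave 3. CTF19 had no value in the null, so VTC3 with CTF19 could not be counted there. The count of pairs was made after the values of PHO81 and YHB1 had been seen.

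The other regulators had no such neighbour. Of the 3 nearest genes on each side of PHO80, PHO85, PHO4 and PHO2, 0 of those measured were past 2-fold in either mutant. Few features of any kind were, 1.59% lower and 1.26% higher in the null, and 1.19% and 0.866% in the SnAC deletion. The count of 0 among so few neighbours lies near those shares. IZH2, which encodes a zinc-regulated membrane protein and is divergent from PHO80, read -0.51 for the null and -0.38 for the SnAC deletion. NSE4, divergent from PHO2, read 0.11 and 0.19, and TRM44, divergent from PHO85, read -0.15 and -0.07.

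**Figure D4:**
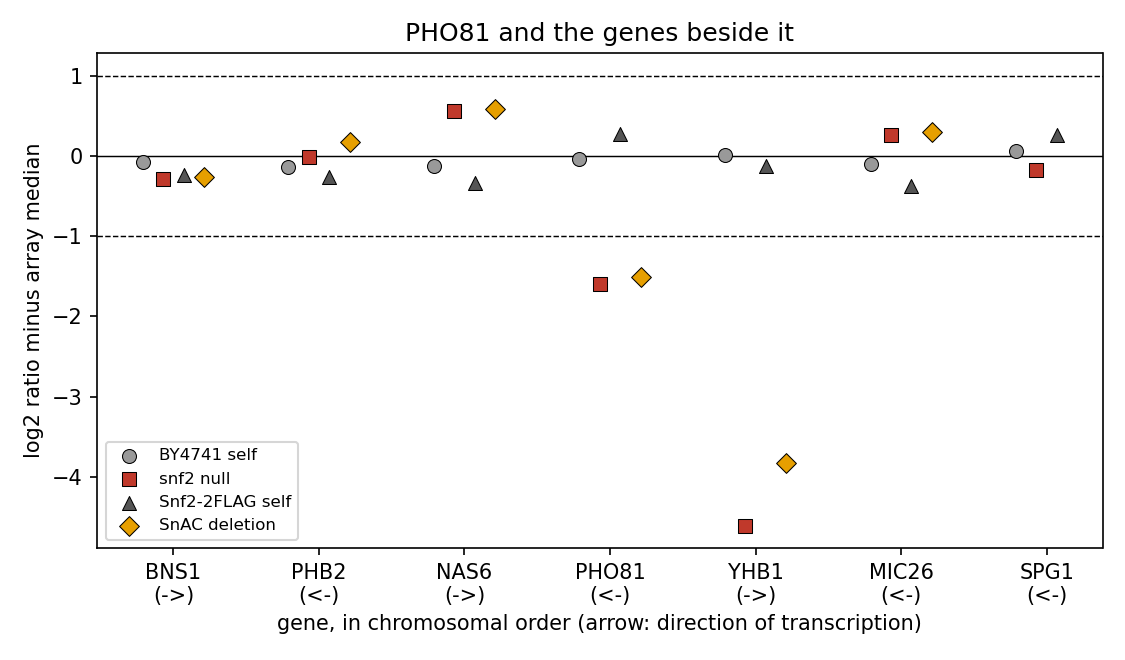
Log2 ratio minus the array median (vertical axis) for PHO81 and the 3 genes on each side in chromosomal order (horizontal axis), with arrows for the direction of transcription and 1 point per array. Dashed lines mark 2-fold. PHO81 and YHB1 are low in both mutants, YHB1 reaching -4.61, and the other measured genes stay between -0.37 and 0.59.

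The genes most like each regulator were sought by the mean absolute difference over the 4 arrays, among 4664 other named genes with all 4 values. For PHO81 only 2 genes came within 0.1, ARN2, a siderophore transporter, at 0.08 and HMS2, which encodes a protein resembling heat shock factors, at 0.08. The next was PLB1, a phospholipase, at 0.15. ARN2 read -1.45 in the null and -1.53 with SnAC deleted, HMS2 read -1.50 and -1.45, and PLB1 read -1.49 and -1.47. None of them is on the list of Pho4 targets.

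The 4 quiet regulators, in contrast, had many look-alikes. Within 0.1 lay 892 genes for PHO4, 863 for PHO80, 474 for PHO85 and 115 for PHO2. The nearest to PHO4 were VPS3, ARP5 and PDS5, and the nearest to PHO80 were PSD1, SEN2 and CKA2. PHO85 was closest to CNB1, SFT2 and SNX4, and PHO2 to FUN19, CUB1 and WHI5. With 4 values per gene, such likeness only describes these arrays.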

How the data were processed

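The authors' deposited table holds 1 log ratio per probe and sample, read as log2. Base 2 is an assumption, and the centring, background correction, filters, scanner software and any use of the spike-in transcripts are not given in the sources used here. Per the labels, the named strain was in channel 1 and the wild type in channel 2, and 2 scans of opposite dye orientation were named per sample. How they were combined is not given. Precision is limited by the number of arrays, 1 per group.

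From these values, each column's median was subtracted and probes of the same gene were averaged (30 genes). Of 6226 probes, the platform annotation gave 1 gene name to 5578 and several to 0, leaving 648 unnamed. The R64 gene table matched 5573 of the named ones and served for symbols, order and strand only. No coordinates or sequences are given. A feature passed the size rule at 2-fold from the array median. No test was possible with 1 sample per group. The code for the rule was checked by adding known shifts, of 3-fold or more, to the wild-type arrays. That check says nothing of values near 2-fold. Named genes are the regulators, members of each list past 2-fold in either mutant or else the largest, the 3 nearest genes of each regulator, and SNF2. Others, including neighbours and further list members given for context, were named with their values in view. The members and lists were chosen with earlier results of these data known, and 1 list, that of Bas1 and Pho2, was added later. Alternatives were no centring, subtraction of the own wild-type array, another median, folds of 1.5 and 3, features on all 4 arrays, and single probes. Software was Python 3.11.15 with pandas 2.3.3, numpy 2.4.6 and matplotlib 3.10.9.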

Additional observations from a re-analysis of the deposited data

Results flagged for a closer look

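PHO4 and PHO80 had opposite signs in the 2 mutants. The null minus the SnAC deletion was 0.042 for PHO4, at 0.03 for the null and -0.01 for the SnAC deletion. It was -0.105 for PHO80, which read -0.07 and 0.04. Neither difference was tested, and both are smaller than the robust SD of this difference over all features, 0.16.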

How the results depend on the processing

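PHO81 stayed at least 2-fold lower in both mutants without centring, with the own wild-type array subtracted and with the median of features on all 4 arrays, and the count of regulators past the rule stayed at 1, except that at 3-fold it was 0 in the SnAC deletion. As deposited, PHO81 read -1.897 in the SnAC deletion, and with the Snf2-2FLAG array subtracted -1.775. The median of the 5 regulators in the SnAC deletion turned to -0.354 as deposited, since that array has a median of -0.39. The median difference between the mutants, -0.062, became 0.335 as deposited and 0.214 after subtracting the wild types, so its sign depends on the scaling. PHO2, PHO80 and PHO85 in the SnAC deletion turned below 0 as deposited, at -0.103, -0.354 and -0.333, and PHO85 moved to 0.374 with the Snf2-2FLAG array subtracted. PHO80 in the null turned to 0.03 with the BY4741 array subtracted. The features past the rule numbered 455 in the null at 1.5-fold and 75 at 3-fold, against 172. In the SnAC deletion they numbered 335 and 44, and 207 with the Snf2-2FLAG array subtracted, against 121. As deposited, 20 were higher and 145 lower there, against 51 and 70. Shifts of values in 1 mutant were judged against the robust SD of the own wild-type array in place of replicate error. That SD may leave out the spread between cultures. Shifts of the difference between the mutants were judged against its robust SD over all features, 0.16, and counts by a ratio of 1.5. No paired analysis was possible because each group holds 1 sample. Without signal levels, dim probes could not be told from bright ones.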
